A study of Mus musculus with 2 samples.

Results

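The gene set described here holds 9 genes: the lecticans Bcan (brevican), Ncan (neurocan) and Vcan (versican), the link protein Hapln1, the tenascins Tnr (tenascin-R) and Tnc (tenascin-C), and the membrane-spanning proteoglycans Ptprz1, Cspg4 (NG2) and Cspg5 (neuroglycan C). They were taken by name, not by their values, out of 24820 genes in the table of the first library below and 22374 in that of the second, and all 9 are in both. The data are 2 single-cell RNA-seq libraries of mouse cerebral cortex dissociated together with the meninges and enriched on magnetic beads for CD140a, the protein of Pdgfra. One library came from Nestin-Cre;Pdgfra flox/flox mice (N-PRα-KO), in which a Cre active in the neural lineage removes the floxed receptor gene from cells of that lineage. The other came from C57BL/6J mice (WT), for which the labels name neither Cre nor floxed allele. Age, sex and number of animals are not given. With 1 library per genotype no test is possible, and genotype, animals, preparation and processing run cannot be told apart.

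In the nervous system these proteins build a matrix that is short of collagen. Lecticans are secreted core proteins that carry chondroitin sulfate chains; one end binds hyaluronan, an interaction that link proteins such as Hapln1 stabilise, and the other end binds tenascins. Ptprz1 is a receptor tyrosine phosphatase whose extracellular part carries chondroitin sulfate and binds contactin, tenascins and pleiotrophin. Cspg4 is the NG2 proteoglycan by which oligodendrocyte precursors and pericytes are commonly recognised, and Cspg5 is a transmembrane proteoglycan of neurons and glia. Tnr is best known from oligodendrocyte-lineage cells and perineuronal nets, and Tnc from astrocytes and germinal zones.

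Counts are unique molecules (UMIs). Cells with 300 or more genes whose mitochondrial share did not exceed 25% were grouped by clustering in which the 9 genes took no part, and clusters were named from marker genes that include none of them. Each class is therefore "like" its name: "precursors" below are oligodendrocyte-precursor-like cells, and so on. Levels are a gene's UMIs per 1000000 UMIs of the class (CPM), followed in parentheses by an exact Poisson 95% interval. Every interval here reflects counting error alone and says nothing of the spread between animals. The kit reads transcripts near the 3′ end, so that a transcript counts once whatever its length, and CPM of different genes are compared as they are. Ratios between the libraries varied with base composition, as described further on, and levels are not corrected for it. Rankings of different genes by CPM carry that limit.

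The N-PRα-KO library gave 4168 usable cells of 8336 barcodes and the WT library 9896 of 11438, with medians of 5775 and 3264 UMIs. They share 38 of the barcodes used. Precursors numbered 58 in N-PRα-KO and 4901 in WT, astrocytes 665 and 1829, fibroblasts 952 and 514, and microglia 574 and 640. None of the 8 precursor markers was at 0 in precursors of either library, which also holds for microglia. The 7 other than Pdgfra summed to 7735 and 7643 CPM in precursors, with Lhfpl3 at 2397 and 3297 and Cacng4 at 2200 and 1449. As the clusters were named from these markers, the values describe the class and are no check of its name. Clustered on its own, the N-PRα-KO library gave no cluster named precursor. Of the N-PRα-KO precursors, 46 formed a cluster without WT cells, and Pdgfra itself stood at 3229.6 CPM in N-PRα-KO and 4969 in WT precursors; the counted 3′ end may lie outside the floxed part, so this is no check of the deletion. Signal in cells that should lack these genes also differed: in microglia the same 7 markers summed to 46.4 CPM in N-PRα-KO and 227 in WT. Microglial levels, taken as a guide to that background, therefore stand beside low values below. Background can differ between classes. Astrocyte markers summed to 1796 CPM in N-PRα-KO and 720 in WT endothelial cells, against 867 and 387 in microglia. A level above that of microglia can thus still be background.

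The 9 genes divided into those shared by precursors and astrocytes, those of precursors and those of astrocytes. Together they made up 1.30% of all UMIs in N-PRα-KO and 1.41% in WT precursors, 0.916% and 1.60% in astrocytes, and 0.0727% and 0.0885% in fibroblasts. A precursor usually had many of them at once: 5 or more were detected in 91.4% of N-PRα-KO and 91.9% of WT precursors. In precursors over astrocytes, 3 of 9 genes were at least 2-fold higher and 3 at least 2-fold lower in each library. Of all genes at 20 CPM or more in either class, 29.0% in N-PRα-KO and 20.4% in WT were 2-fold higher, and 12% and 11.5% were 2-fold lower. The count of higher members is thus near the background in the N-PRα-KO library, and the division describes single genes. The median log2 ratio of the 9 was 0.25 and -0.17, against 0.51 and 0.38 for all genes tested.

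**Figure D1:**
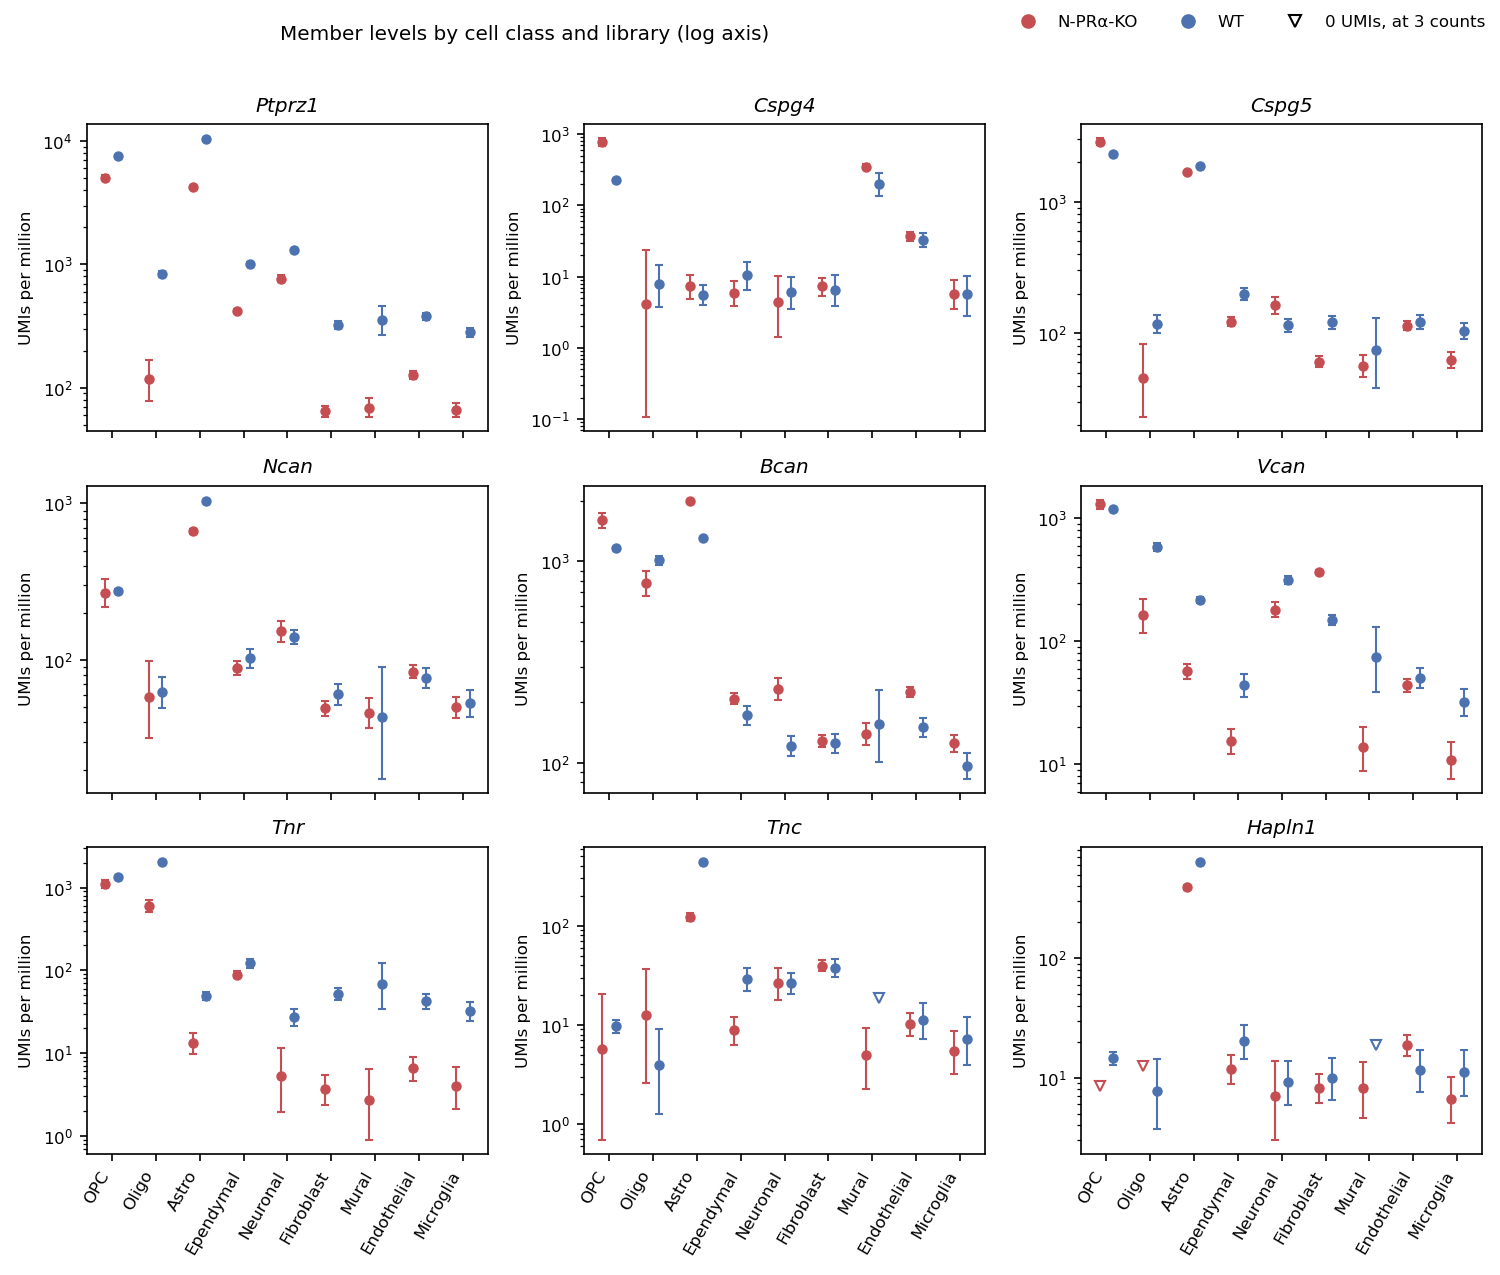
Levels of the 9 genes in CPM on a log axis, by cell class, with 1 point per library and bars for the exact Poisson 95% interval; open triangles mark 0 UMIs, drawn at the level of 3 UMIs. Precursors and astrocytes carry Ptprz1, Cspg5, Bcan and Ncan together, whereas Cspg4, Vcan and Tnr are high in precursors and Hapln1 and Tnc in astrocytes.

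Among the lecticans, Bcan was common to both glial classes. Precursors held 1602 (1472 to 1740.3) CPM in N-PRα-KO and 1159 (1144 to 1175) in WT, and astrocytes 1983 (1938 to 2028) and 1300.3 (1274 to 1327). Precursors over astrocytes had log2 ratios of -0.31 (-0.43 to -0.18) and -0.17 (-0.20 to -0.13), differences of less than 2-fold whose direction did not hold. With the mitochondrial limit at 10% the ratios were 0.72 and 0.87, and the WT ratio was 0.07 over resting precursors alone. Microglia held 125 and 96.5 CPM, so Bcan at such levels in another class is read as background.

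Ncan was the lectican that leaned to astrocytes. It stood at 269 (217 to 329) CPM in N-PRα-KO and 276 (268 to 284) in WT precursors, levels whose intervals overlap. Astrocytes held 664 (638 to 689.9) and 1036 (1012 to 1059) CPM, which put precursors 2.47-fold (2.01 to 3.07) and 3.76-fold (3.62 to 3.89) lower. With the mitochondrial limit at 10%, which leaves 11 N-PRα-KO precursors, the N-PRα-KO log2 ratio turned to 0.43. The WT ratio went from -1.91 to -0.92 at that limit, under 2-fold.

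Vcan, the lectican with variants of very different size, was on the side of the precursors. It reached 1299 (1182 to 1424) CPM in N-PRα-KO and 1185 (1169 to 1201) CPM in WT precursors, against 56.9 (49.7 to 65.0) and 217 (206 to 228) in astrocytes. The precursor level was 22.8-fold (19.4 to 26.9) higher in N-PRα-KO and 5.46-fold (5.19 to 5.76) higher in WT. A Vcan UMI was seen in 91.4% and 90.8% of precursors with all UMIs, at median depths of 5758 and 3279 UMIs, and in 5.92% and 8.12% of microglia at 5603 and 2742. With cells thinned to 2000 UMIs, which leaves out 4 N-PRα-KO and 650 WT precursors, the precursor shares were 85.2% and 83.7% and those of microglia 1.40% and 4.54%.

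Hapln1 had the opposite pattern to Vcan. Astrocytes held 394 (374 to 414) CPM in N-PRα-KO and 635 (617 to 654) in WT. N-PRα-KO precursors had 0 Hapln1 UMIs in 58 cells. Read as 3 UMIs over the class, or 3 of the 58 cells, a count of 0 allows a level of up to 8.58 CPM and a share of up to 5.17% of cells with a UMI. In WT precursors Hapln1 stood at 14.6 (12.9 to 16.5) CPM, near the 11.2 CPM of microglia. The precursor level was at least 45.9-fold lower than in astrocytes of the N-PRα-KO library with that floor, and 43.4-fold (38.3 to 49.3) lower in the WT library. With the mitochondrial limit at 10%, the N-PRα-KO log2 ratio went from -5.52 to -0.90, a bound under 2-fold from few precursors. The WT ratio went from -5.44 to -4.08.

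Hapln1 and Vcan are neighbours in the mouse genome. On GRCm38 (GENCODE M21), Hapln1 lies at chr13:89539796-89611652 on the plus strand and Vcan at chr13:89655312-89742509 on the minus strand, 43.7 kb apart with 0 protein-coding genes in between. The link protein gene beside Bcan is Hapln2, 21.5 kb away, and the one beside Ncan is Hapln4, 2.22 kb away. Hapln2 gave 0 and 3 UMIs and Hapln4 1 and 30 UMIs in N-PRα-KO and WT precursors. The neighbours Hapln1 and Vcan thus had high levels in different glial classes of the same libraries. Upstream sequences are printed for Vcan and Tnr, high in precursors, and Tnc, high in astrocytes, since these members part by class. Each run is the 250 bases before the RefSeq transcription start on GRCm38.p6, 5′ to 3′ on the gene's own strand, with motif matches in capitals: Vcan from chr13:89742513-89742762 (minus strand), Tnr from chr1:159523519-159523768 (plus strand) and Tnc from chr4:64047016-64047265 (minus strand).
Vcan: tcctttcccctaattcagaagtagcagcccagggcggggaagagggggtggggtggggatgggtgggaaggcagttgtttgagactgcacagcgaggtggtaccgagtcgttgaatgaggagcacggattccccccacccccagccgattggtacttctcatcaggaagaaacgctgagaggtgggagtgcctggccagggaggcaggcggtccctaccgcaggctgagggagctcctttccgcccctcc
Tnr: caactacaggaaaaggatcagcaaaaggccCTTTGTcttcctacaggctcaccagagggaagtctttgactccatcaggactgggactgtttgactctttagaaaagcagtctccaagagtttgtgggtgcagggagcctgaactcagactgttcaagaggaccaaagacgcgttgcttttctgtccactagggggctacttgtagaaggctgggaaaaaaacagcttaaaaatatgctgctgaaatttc
Tnc: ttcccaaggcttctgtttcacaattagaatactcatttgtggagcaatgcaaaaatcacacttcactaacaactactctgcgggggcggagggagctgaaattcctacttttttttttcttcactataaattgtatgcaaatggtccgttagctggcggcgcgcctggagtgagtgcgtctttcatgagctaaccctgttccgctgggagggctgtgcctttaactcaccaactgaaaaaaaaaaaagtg
The motifs searched on both strands were CAGCTG (an E-box) and ACAAAG and ACAATG (cores of SOX motifs). Vcan and Tnc have 0 matches in their windows. The capitals in Tnr mark CTTTGT, which is ACAAAG read on the other strand, 220 to 215 bases before the start. Ncan holds CAGCTG 58 to 53 bases before its start, and the other members with an entry have 0 matches. Among all 32851 RefSeq promoters of this length, 16.5% hold ACAAAG, 13% CAGCTG and 10.7% ACAATG. A match describes the letters of these windows and is not a binding site. The Vcan window is 62.4% G and C, that of Tnr 46.8% and that of Tnc 44.8%.

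The tenascins divided in the same way. Tnr, an inhibitor of axon growth in culture, stood at 1109.9 (1002 to 1226) CPM in N-PRα-KO and 1352 (1335 to 1369) in WT precursors. Astrocytes held 13.3 (9.87 to 17.4) and 48.7 (43.7 to 54.1) CPM. Precursors were 83.7-fold (62.4 to 114) higher in N-PRα-KO and 27.8-fold (25 to 30.9) higher in WT. The WT astrocyte level is close to that of WT microglia, 32.2 CPM, while N-PRα-KO microglia held 3.94 CPM, so the size of the ratio rests on the background of each library.

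Tnc was a gene of astrocytes. Astrocytes held 124 (113 to 135) CPM in N-PRα-KO and 436 (421 to 451) in WT. Precursors held 2 UMIs, 5.72 (0.693 to 20.7) CPM, and 9.71 (8.31 to 11.3) CPM, near the 5.46 and 7.15 CPM of microglia. The precursor level was 21.6-fold (5.94 to 179) and 44.9-fold (38.5 to 52.6) lower. A Tnc UMI was seen in 34.9% of N-PRα-KO and 58.3% of WT astrocytes, and in 20.6% and 50.5% of them at 2000 UMIs.

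Of the membrane proteoglycans, Ptprz1 was the most abundant member in both glial classes. Precursors held 5040.3 (4808 to 5281) CPM in N-PRα-KO and 7539 (7499 to 7579.9) in WT, and astrocytes 4252 (4187 to 4318) and 10484 (10409 to 10559). The log2 ratio of precursors over astrocytes was 0.25 (0.17 to 0.32) in N-PRα-KO, above 0, and -0.48 (-0.49 to -0.46) in WT, below 0. Both differences are under 2-fold, and with the mitochondrial limit at 10% the WT ratio was 0.25, also above 0.

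Cspg5 also belonged to both. Precursors held 2849 (2675 to 3032) and 2303 (2280.4 to 2325) CPM and astrocytes 1671 (1630.1 to 1712) and 1881 (1849 to 1912). The precursor level was higher by less than 2-fold in each library, with log2 ratios of 0.77 (0.67 to 0.87) and 0.29 (0.26 to 0.32).

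Cspg4 and Tnr had the highest ratios over astrocytes of the 9 genes in both libraries. Precursors held 778 (688 to 876) CPM in N-PRα-KO and 230.1 (223 to 237) in WT, and astrocytes 7.28 and 5.53 CPM beside 5.76 and 5.62 in microglia. Precursors were 107-fold (72.3 to 164) and 41.6-fold (30.5 to 58.3) higher, intervals that overlap those of Tnr. In spite of this Cspg4 was the least abundant of the 7 genes that precursors carried in the WT library, and a Cspg4 UMI was seen in only 36.9% of WT precursors at 2000 UMIs against 70.4% of N-PRα-KO precursors. Microglia showed 0.619% and 1.22%.

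**Figure D2:**
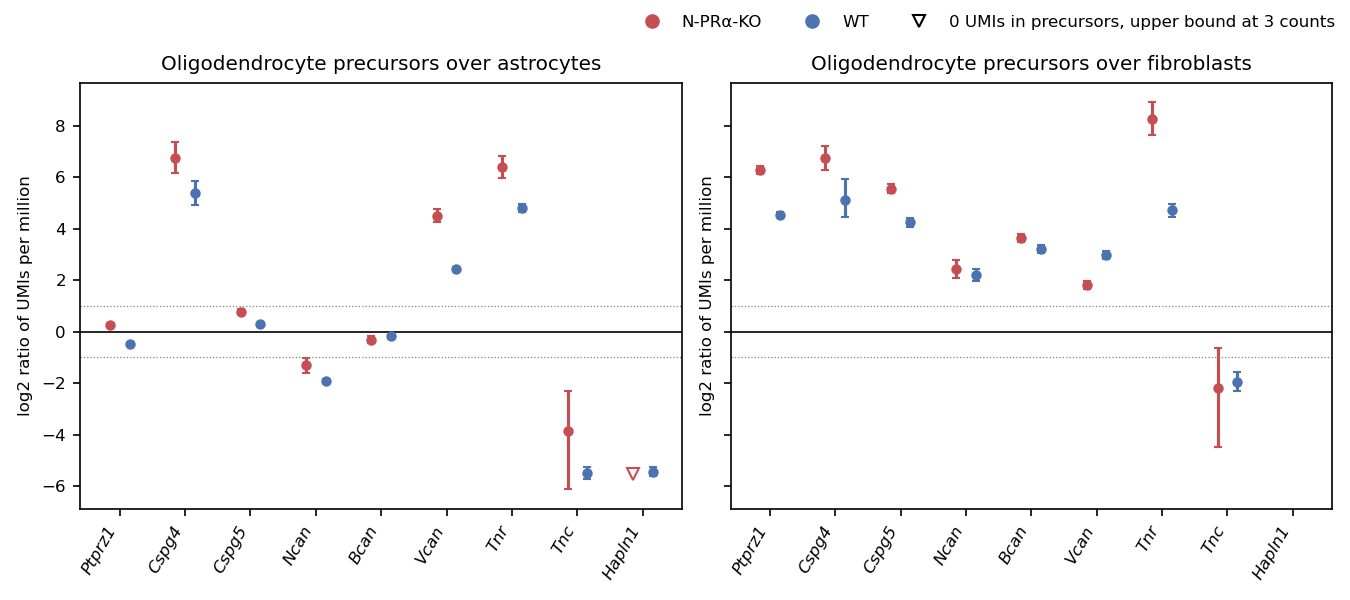
Log2 ratios of the 9 genes in precursors over astrocytes and over fibroblasts, with 1 point per library and bars for the exact 95% interval from counting; an open triangle marks the bound set by 0 UMIs, and the 2 Tnc UMIs of N-PRα-KO precursors are drawn as 3. Cspg4, Vcan and Tnr lie above both classes, Hapln1 and Tnc below astrocytes, and Ptprz1, Cspg5 and Bcan within 2-fold of astrocytes.

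Fibroblasts carried Vcan and Tnc, and little of the rest. Set against microglia of the same library, only these 2 of the 9 genes reached 3 times the microglial level in fibroblasts of each library, whereas 7 did in precursors and 8 (N-PRα-KO) and 7 (WT) did in astrocytes. Vcan stood at 367 (352 to 381) CPM in N-PRα-KO and 149 (135 to 165) in WT fibroblasts. Tnc stood at 39.5 (34.9 to 44.6) and 37.7 (30.6 to 46.0) CPM, intervals that overlap. For Ptprz1, Cspg5, Ncan and Bcan the fibroblast levels of 64.4, 60.8, 49.2 and 128 CPM in N-PRα-KO cells lie beside 66.1, 62.5, 50 and 125 CPM in microglia of that library. With Scrublet calls kept, 0 of the 9 reached 3 times the microglial level in WT fibroblasts, where Vcan and Tnc were 154 and 38.3 CPM.

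In precursors over fibroblasts, 8 of the 9 genes could be compared, since Hapln1 was under 20 CPM in both classes. In each library 7 were at least 2-fold higher and 1, Tnc, at least 2-fold lower, beside 28.5% of all genes higher and 14.9% lower in the N-PRα-KO library and 27.1% and 14.7% in the WT library. The smallest of the 7 folds was that of Vcan in the N-PRα-KO library, 3.54-fold (3.20 to 3.92), and of Ncan in the WT library, 4.56-fold (3.89 to 5.38). That Vcan value rests on 1 fibroblast cluster, described further on: without it the log2 ratio went from 1.83 to 4.14, and Ncan, at 2.43, was the smallest. The largest were 305-fold (202 to 482) for Tnr in the N-PRα-KO library and 35.2-fold (21.9 to 60.4) for Cspg4 in the WT library. That Cspg4 value rests on 17 UMIs in WT fibroblasts. Its log2 ratio went from 5.14 to 2.02 with the mitochondrial limit at 10%. Tnc was 6.91-fold (1.89 to 57.4) lower in N-PRα-KO and 3.89-fold (3.0 to 5.01) lower in WT precursors. With the mitochondrial limit at 10%, which leaves 11 N-PRα-KO precursors and 11 WT fibroblasts, the N-PRα-KO log2 ratio of Vcan was 0.87 and that of Tnc 0.33, the latter with 0 Tnc UMIs in those precursors set to 3. At that limit WT Tnc was under 20 CPM in both classes, with 0 UMIs in fibroblasts, and was no longer compared; with fibroblasts set to 3 UMIs its log2 ratio was -2.98, beside -1.96 at the 25% limit.

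Outside these 3 classes, members also stood out in several other classes, of which mural, ependymal and neuronal cells are described here. Cspg4 was a gene of mural cells, the pericytes and smooth muscle of vessels, with 349 (322 to 377) CPM in N-PRα-KO and 199 (136 to 281) in WT. The intervals of WT mural cells and WT precursors overlap, and endothelial cells followed at 36.7 (31.8 to 42.1) and 32.8 (25.7 to 41.2) CPM. An endothelial cluster of 77 N-PRα-KO and 73 WT cells had mural as its next class, with marker scores of 4.93 for endothelial and 1.48 for mural. The part of mural cells or their RNA in the endothelial level was not tested. The libraries differ in their cells: 49.7% of all Cspg4 UMIs came from mural cells in the N-PRα-KO library, while 94.5% came from precursors in the WT library. Likewise 63.3% of Vcan UMIs came from fibroblasts in the former and 83.3% from precursors in the latter.

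Tnr appeared in ependymal cells, the ciliated lining of the ventricles, at 88.8 (80.3 to 97.9) CPM in N-PRα-KO and 121 (106 to 137) in WT. A Tnr UMI was seen in 16.6% and 20.9% of ependymal cells at 2000 UMIs, against 0.350% and 4.54% of microglia. The 7 precursor markers summed to 123 and 364 CPM there, above the 46.4 and 227 of microglia. Cacng4 alone gave 94.7 and 107 CPM in ependymal cells, against 15.2 and 35.2 in microglia. In N-PRα-KO ependymal cells Olig1 was 7.29 against 9.10 CPM in microglia, Olig2 3.53 against 4.85 and Sox10 6.18 against 6.07. In WT ependymal cells these genes were above microglia, with Olig1 at 65.5 against 37.8 CPM. The part of the markers in the Tnr level was not tested. Ependymal Ptprz1 was 419 (401 to 439) and 1008 (964 to 1053) CPM.

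Cells of the neuronal lineage carried Vcan and Ptprz1, and less of Tnc, with 30 UMIs in N-PRα-KO and 69 in WT. In all, 4 members in N-PRα-KO and 3 in WT reached 3 times the microglial level. These were Ptprz1, Vcan and Tnc, joined by Ncan in N-PRα-KO. Vcan stood at 181 (157 to 208) CPM in N-PRα-KO and 315 (294 to 338) in WT, and Ptprz1 at 769 (719 to 822) and 1299 (1256 to 1344). The class is not uniform. In the dividing cluster, which both libraries share, Vcan was 128 and 175 CPM. A non-dividing cluster of 383 WT cells held 692 CPM of Vcan and one of 124 N-PRα-KO cells 279. Vcan was also found in excitatory neurons, a separate class, with 47 UMIs in 44 N-PRα-KO and 227 UMIs in 145 WT cells. In that class 3 of the 9 genes reached 3 times the microglial level in each library.

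Along the oligodendrocyte lineage the members went different ways. The WT library held 2956 resting precursors, 1046 dividing ones, 899 in a cluster with Lhfpl3, Vxn, Cntn1 and Dll3 as its leading genes, and 146 oligodendrocytes. The last were split, after their values were seen, into 23 cells with more UMIs of committed-precursor markers than of myelin markers and 123 others. Ptprz1 stood at 9124 CPM in resting precursors, 5935 in dividing ones, 5042 in the Dll3 cluster, 2845 in the committed cells and 655 in the other oligodendrocytes, 13.9-fold below resting precursors. Cspg5 went the same way, from 2837 CPM over 1284 in the Dll3 cluster to 111, and Cspg4 from 285 over 156 to 7.67. The 3 membrane proteoglycans were thus highest in resting precursors, as were the lecticans Bcan and Ncan.

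Tnr and Vcan did not follow them. Tnr was 1593 (1568 to 1618) CPM in resting precursors, 1017 in dividing ones and 1139 in the Dll3 cluster. It reached 3413 (3072 to 3780.3) in the committed cells, 2.14-fold (1.93 to 2.38) over resting precursors, and 1899 (1821 to 1979.6) in the other oligodendrocytes. Vcan was 1207 (1186 to 1229) CPM in resting precursors, 998 in dividing ones, 1451 (1407 to 1497) in the Dll3 cluster and 1711 (1473 to 1977) in the committed cells, then 481 (442 to 523) in the other oligodendrocytes. Committed cells stood highest of these WT groups for both, though for Vcan the intervals of the committed cells and the Dll3 cluster overlap, and the committed cells are 23 cells of 1 library.

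Bcan persisted in oligodendrocytes, with 1368 CPM in resting precursors, 782 in the Dll3 cluster, 651 in the committed cells and 1044 in the other oligodendrocytes. Ncan was 325 CPM in resting precursors and 55.4 in those oligodendrocytes, beside 53.1 in WT microglia. In the N-PRα-KO library only resting precursors (48 cells) and 9 oligodendrocytes can be set side by side. Tnr was 1206 (1081 to 1341) CPM in the former and 594 (500.1 to 699.8) in the latter, where a Tnr UMI was seen in 33.3% of cells, and Bcan 1771 (1619 to 1934) and 778 (669.9 to 898). The library's oligodendrocytes are too few to say how Tnr is spread among them.

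**Figure D3:**
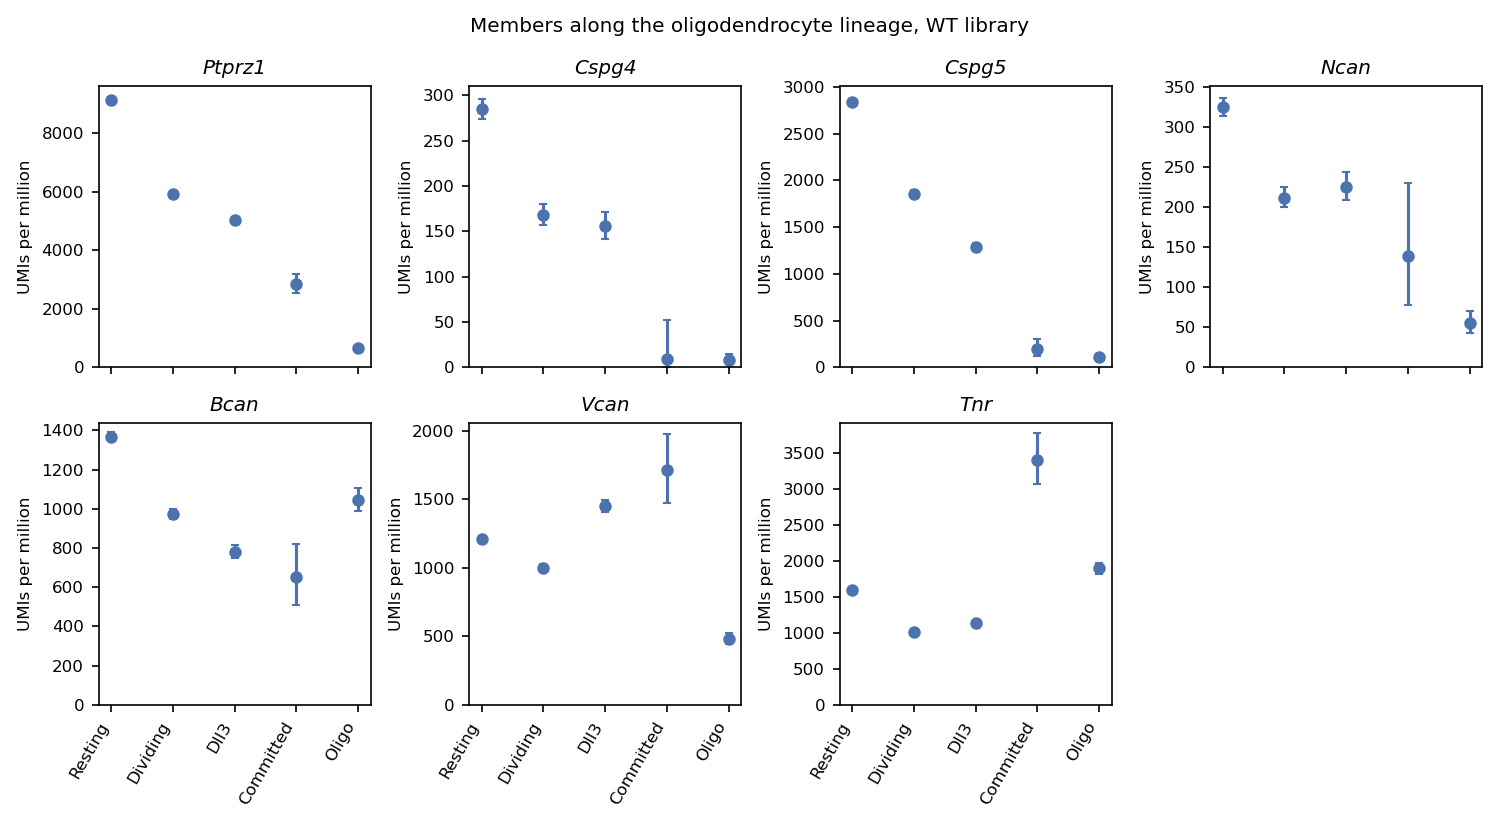
Levels of the 7 genes that precursors carry, in CPM on linear axes, in 5 groups of the WT oligodendrocyte lineage, with bars for the exact Poisson 95% interval. Cspg5, Ptprz1, Ncan and Vcan are lowest in the other oligodendrocytes, while Tnr is highest in the committed cells at 3413 CPM. Cspg4 is 285 CPM in resting precursors, 7.67 in the other oligodendrocytes and 9.30 in the committed cells. The last value rests on fewer than 3 UMIs, so Cspg4 cannot be ranked between the committed cells and the other oligodendrocytes.

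Astrocytes were split into 2 groups of clusters that differed in their matrix genes. Clusters with Thbs4 among their 5 leading genes, called Thbs4-led here (240 N-PRα-KO and 791 WT cells), were set against the others (425 and 1038). Thbs4 came first in the N-PRα-KO cluster, whereas in the WT cluster the member Tnc came first and Thbs4 next. Nearly all the other WT astrocytes lay in clusters of 772 and 265 WT cells, both with the member Hapln1 first. The smaller one scored as dividing, had a median of 1211 UMIs and held 0 N-PRα-KO cells, so the others are not alike in the libraries. Hapln1 was 37.5 (26.8 to 51.1) CPM in Thbs4-led and 530.4 (504 to 558) in other N-PRα-KO astrocytes, and 99.9 (87.7 to 113) and 905 (879 to 933) in WT, or 14.1-fold and 9.07-fold lower. Ncan was 4.19-fold and 3.0-fold lower, at 201 against 841 CPM and 444 against 1334. Bcan was 3.10-fold and 2.72-fold lower, and Ptprz1 1.90-fold and 2.10-fold lower. Hapln1, Ncan, Bcan and Ptprz1 were thus lower in Thbs4-led cells of both libraries. Vcan did not go that way in both libraries: it was 66.6 against 53.3 CPM in N-PRα-KO, a log2 ratio of 0.32 (-0.11 to 0.74), and 198 against 226 in WT, a ratio of -0.20 (-0.35 to -0.04).

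Tnc went the other way. It was 167 (143 to 193) CPM in Thbs4-led and 107 (95.1 to 119.8) in other N-PRα-KO astrocytes, and 589 (558 to 619.9) and 359 (342 to 376) in WT, 1.56-fold and 1.64-fold higher. Cspg5 differed by 1.09-fold in each library, lower in Thbs4-led cells. As the groups were taken from clusters of these same cells, these values describe the clusters, although the 9 genes took no part in forming them. Tnc and Hapln1 are themselves among the leading genes of WT clusters.

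**Figure D4:**
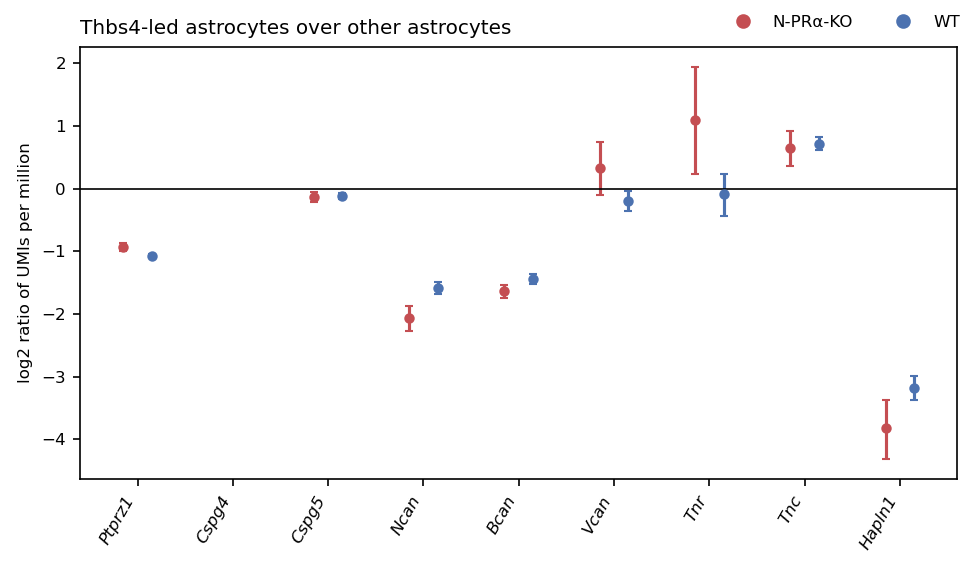
Log2 ratios of the members in Thbs4-led over other astrocytes, with 1 point per library and bars for the exact 95% interval from counting. Hapln1, Ncan and Bcan are lower and Tnc is higher in the Thbs4-led cells of both libraries.

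Between the libraries, Cspg4 was the 1 member past 2-fold in precursors, and most precursors of each library lie in different clusters. Of the members, 7 were at 20 CPM or more in precursors of either library. Of these, 1 was at least 2-fold higher and 0 at least 2-fold lower in N-PRα-KO, beside 17.7% and 8.72% of all genes, so that the count of higher members is near the background. Cspg4 was 778 CPM in N-PRα-KO and 230.1 in WT, 3.38-fold (2.98 to 3.82) higher. The other 6 log2 ratios ran from -0.58 (-0.65 to -0.51) for Ptprz1 to 0.47 (0.34 to 0.59) for Bcan. Across genes, log2 ratios between the libraries rose with the G and C share of the last 500 transcript bases; Spearman's rho was 0.590 in precursors, 0.655 in astrocytes and 0.564 in fibroblasts over 8301, 7027 and 7268 genes, which share the same 2 libraries.

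That share was 55% for Cspg4, 57.2% for Bcan and 29.6% for Ptprz1. With the trend removed, the log2 ratio of Cspg4 was 0.60, under 2-fold, that of Bcan -0.85, a turn to the lower side, and that of Ptprz1 -0.06. In mural cells Cspg4 had a log2 ratio of 0.81 (0.30 to 1.37) before and 0.12 after the trend was removed. The part of base composition in the precursor value was not tested beyond this.

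Among astrocytes, 8 members could be compared, and 0 were at least 2-fold higher and 4 at least 2-fold lower in N-PRα-KO, beside 14.1% and 7.44% of all genes. Here too each library fills its own clusters. The median of all genes was -0.15 on the log2 scale. Vcan was 56.9 CPM in N-PRα-KO and 217 in WT astrocytes, a log2 ratio of -1.93 (-2.14 to -1.72), and Tnc 124 and 436, a ratio of -1.82 (-1.96 to -1.68). Both stayed at least 2-fold lower with the trend removed (-1.37 and -1.49) and with the microglial level subtracted (-2.0 and -1.86). The 7 precursor markers moved the same way in astrocytes, with sums of 175 and 474 CPM, as did Pdgfra, at 23.9 and 130.5, and their part in the Vcan and Tnr values was not tested. Ptprz1 had a ratio of -1.30 (-1.33 to -1.28), or -0.61 without the trend.

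The fourth, Tnr, fell to under 20 CPM in both libraries once the microglial level was subtracted, from 13.3 and 48.7 CPM, and its ratio of -1.88 became -0.67 with the mitochondrial limit at 10%. Hapln1, with a ratio of -0.69 (-0.78 to -0.61), and Ncan, with -0.64 (-0.71 to -0.58), were lower by less than 2-fold. Bcan was the member that was higher, at 0.61 (0.56 to 0.65), and turned to -0.60 without the trend. Among astrocytes that were not Thbs4-led the ratios of Tnc and Vcan were -1.75 and -2.09.

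Fibroblasts differed in Vcan. Of 7 members compared, 1 was at least 2-fold higher and 2 at least 2-fold lower in N-PRα-KO, beside 15.8% and 8.28% of all genes. The 2 lower ones were Ptprz1 and Tnr, at ratios of -2.33 (-2.50 to -2.16) and -3.83 (-4.52 to -3.19). Microglia had ratios of -2.09 (-2.32 to -1.86) and -3.03 (-4.01 to -2.15) for the same genes, and the 7 precursor markers summed to 48.6 CPM in N-PRα-KO and 349.6 in WT fibroblasts. Vcan, at 367 against 149 CPM, was 2.45-fold (2.20 to 2.74) higher, with a log2 ratio of 1.30 (1.14 to 1.45).

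That difference rests on 1 cluster. A cluster of 619 N-PRα-KO fibroblasts held 509 CPM of Vcan and a cluster of 497 WT fibroblasts 153. The cluster that the libraries share held 73.9 CPM over 333 N-PRα-KO cells and 1 UMI over 17 WT cells. Without the N-PRα-KO cluster the log2 ratio was -1.02. Different clusters thus hold most of the fibroblasts of the libraries, and the high Vcan was in the cluster made of N-PRα-KO cells. Tnc differed less between these clusters, at 46.9, 24.5 and 38.3 CPM.

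**Figure D5:**
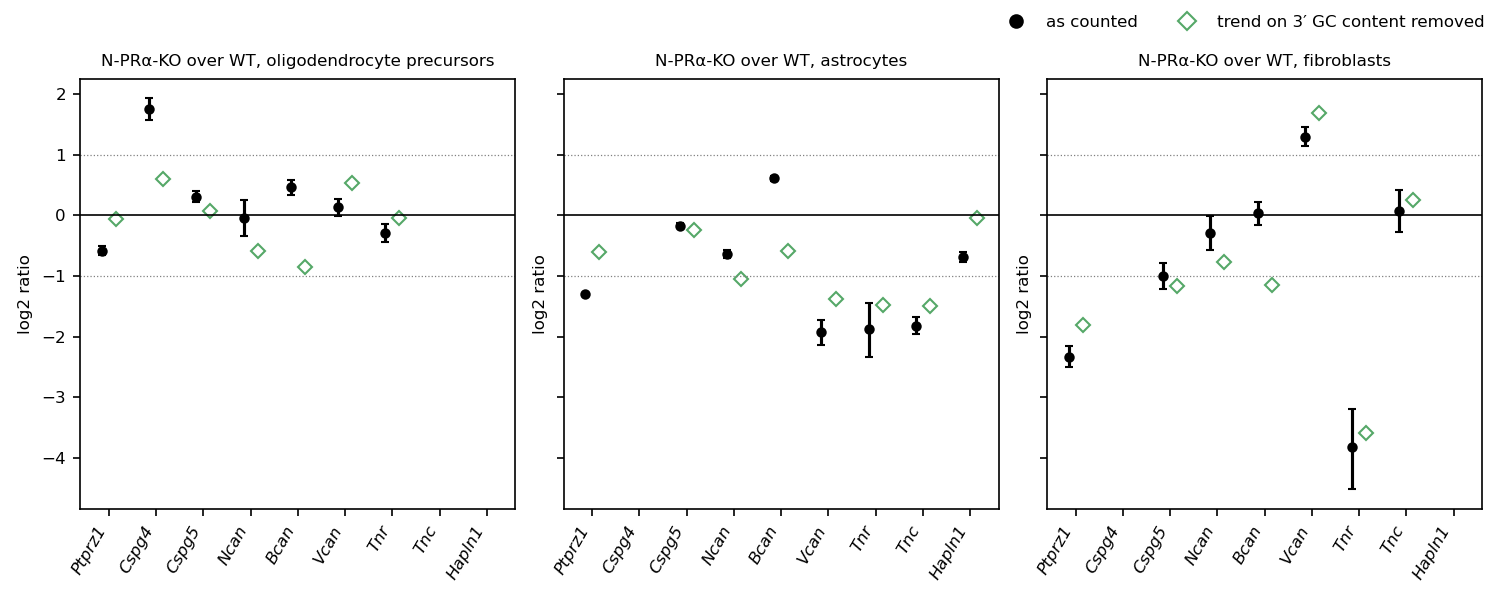
Log2 ratios of the members in N-PRα-KO over WT cells of each class, as measured and with the trend on transcript base composition removed, with bars for the exact 95% interval from counting on the measured values. Vcan is higher in N-PRα-KO fibroblasts and lower in N-PRα-KO astrocytes, and Cspg4 in precursors drops under 2-fold once the trend is removed.

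Genes that make, bind and cut these proteins were taken from 5 lists. Their counts stand beside the 29.0% and 20.4% of all genes that were 2-fold higher in precursors over astrocytes, and the 12% and 11.5% that were lower, and are read against them. Of the enzymes that build and sulfate chondroitin chains, 9 of 21 were measured at 20 CPM in N-PRα-KO precursors or astrocytes, 5 at least 2-fold higher and 2 at least 2-fold lower in precursors. In the WT library the counts were 6 and 2 of 12. The list's median log2 ratio was 1.08 and 1.06, against 0.51 and 0.38 for all genes at 20 CPM or more. With no filter on level the list's median was 0.69 and 0.52. Over fibroblasts, 5 of 14 enzymes were at least 2-fold higher and 5 lower in N-PRα-KO precursors, with a median of -0.41. In WT precursors over fibroblasts the counts were 4 and 3 of 13, with a median of 0.13. Xylt1, which attaches the first sugar of the chain, stood at 426 and 639 CPM in precursors and 105 and 161 in astrocytes. Chst11, a chondroitin 4-O-sulfotransferase, stood at 415 and 288 against 85.8 and 66.8. Chsy1 and Csgalnact1, which lengthen and start the repeat, were on the astrocyte side, with 20 and 68.5 against 64.0 and 152 CPM for Chsy1.

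Of receptors and partners, 12 of 15 were measured, with 4 higher and 3 lower in precursors of each library and median log2 ratios of 0.34 and 0.45, against 0.51 and 0.38 for all genes. The count of higher ones is near the background of the N-PRα-KO library. Contactin-1 (Cntn1), which binds Ptprz1 and Tnr, stood at 1794 and 2155 CPM in precursors and 32.5 and 64.9 in astrocytes. Pleiotrophin (Ptn), a secreted ligand of Ptprz1, was lower in precursors, at 1731 and 2101 against 3653 and 7047 CPM in astrocytes, and highest of the 3 classes in fibroblasts, at 7928 and 9439.9. Sdc3, a heparan sulfate proteoglycan that binds pleiotrophin, was 898 and 952 CPM in precursors and 102 and 147 in astrocytes. Between precursors and astrocytes, Ptn was thus higher in astrocytes, and Cntn1 and Sdc3 in precursors. These are single genes of the list, and Ptprz1 itself differed by less than 2-fold between these classes, with log2 ratios of 0.25 and -0.48.

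Of proteases and inhibitors that act on lecticans and other matrix proteins, 7 of 10 were measured; 4 were higher and 2 lower in N-PRα-KO precursors, 3 and 2 in WT precursors. The membrane-type metalloproteinase Mmp15 was 641 and 366 CPM in precursors and 23.7 and 24.9 in astrocytes, whereas the inhibitor Timp3 was 223 and 262 against 704 and 886. Of hyaluronan synthases, receptors and other link proteins, 2 (N-PRα-KO) and 3 (WT) of 11 were measured, with 1 higher in precursors of each library and 0 and 1 lower. Acan (aggrecan), the lectican that is no member here, gave 15 UMIs in N-PRα-KO precursors, 42.9 CPM, and 21.9 CPM in WT precursors. Of other tenascins and core proteins, 8 and 7 of 12 were measured, with 3 and 2 higher and 2 and 1 lower. Sparcl1, a secreted glycoprotein of astrocytes, was 901 and 440.0 CPM in precursors against 10823 and 10362.

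The genes most like each member across classes were sought over 23 class-by-library values, by Pearson's r of log2(CPM + 10) among 8903 genes. For Ptprz1 they were Fabp7 (r = 0.98), Slitrk2 (r = 0.96) and Dab1 (r = 0.94), for Cspg5 Grin3a (r = 0.95), Car8 (r = 0.94) and Gabrg1 (r = 0.93), and for Cspg4 Slc8a2 (r = 0.86), Ate1 (r = 0.85) and Kcnk3 (r = 0.84). Bcan had Gpr37l1 (r = 0.92) and Scrg1 (r = 0.92), Ncan Trim9 (r = 0.98), Chst10 (r = 0.94) and Rorb (r = 0.94), and Vcan Rab2a (r = 0.91), Cask (r = 0.89) and Vkorc1l1 (r = 0.86). Tnr had Sox10 (r = 0.94), Gpr17 (r = 0.93) and Bcas1 (r = 0.93), Tnc St6galnac5 (r = 0.86), Ttpa (r = 0.86) and Tpbg (r = 0.85), and Hapln1 Cth (r = 0.94), Hgf (r = 0.93) and AI464131 (r = 0.91). None of these is a member. Those nearest to Tnr are genes of the oligodendrocyte lineage: Sox10 is its transcription factor, and Gpr17 and Bcas1 mark committed precursors. All points come from the same 2 libraries, so these values describe likeness within them.

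Within resting precursors, the members were also compared cell by cell. Over 2500 WT resting precursors thinned to 2000 UMIs, Pearson's r of the 36 pairs ran from -0.04 to 0.16, with a median of 0.02. The highest was that of Vcan and Tnr, and such weak values in sparse counts are no finding. Over the 48 N-PRα-KO cells 21 pairs ran from -0.24 to 0.36 thinned, with a median of 0.09, and up to 0.49 at full depth. Vcan and Tnr were detected together in 80.3% of the WT cells, where the product of their own shares is 79.3%.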

How the data were processed

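The deposited values are raw UMI counts, for each gene in each cell. They come from version 1.10 (N-PRα-KO) and 1.10.1 (WT) of the BD Rhapsody WTA Analysis Pipeline, on GRCm38 and GENCODE M19, per the file headers. The pipeline's aligner, not given in the sources used here, is left unnamed. Libraries held 41982217 and 43459947 UMIs. The mitochondrial limit left out 4126 N-PRα-KO and 1329 WT barcodes, and Scrublet called 28 and 173 doublets, which were removed. Remaining cells of both libraries were clustered together without the members (scanpy 1.11.5, leidenalg 0.10.2, resolution 1), giving 33 clusters, each named by its mean log2 fold over a class's markers (at least 0.5, leading the next class by 0.5). UMIs were summed per class and library. Shares carry exact Clopper-Pearson intervals and ratios exact conditional intervals (95%). Counts under 3 were set to 3 in ratios, except that Tnc with 2 UMIs is given unfloored. Ratios were computed for genes at 20 CPM or more in either arm and were tested on simulated data. The trend on base composition was a lowess fit (fraction 0.3) over genes, from GENCODE M21 transcripts. All 9 members are named, with up to 5 genes per list by level and the 3 nearest genes per member; Acan, Hapln2 and Hapln4 were added after their values were seen, and 1 gene that the rule names is not reported here. Promoters are RefSeq's, for 8 of the 9 members. The members and lists were chosen with earlier results of these data known. Alternatives changed the cell filters, clustering, class assignment, scaling, thinning and trend. Of these, 4 were added after seeing the data: leaving out N-PRα-KO fibroblast cluster 6, leaving out Thbs4-led astrocytes, resting precursors alone, and a 50% mitochondrial limit.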

Additional observations from a re-analysis of the deposited data

Results flagged for a closer look

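In 3 cases effects pointed opposite ways in 2 libraries or classes, and the difference between them was not tested, since each genotype has 1 library. Ptprz1 in precursors over astrocytes had a log2 ratio of 0.25 in N-PRα-KO and -0.48 in WT. With the mitochondrial limit at 10% the WT ratio was 0.25.

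Cspg5 in N-PRα-KO over WT had log2 ratios of 0.31 in precursors, -0.17 in astrocytes and -1.0 in fibroblasts. With the mitochondrial limit at 10% the precursor ratio was -0.03. Fibroblast levels were 60.8 and 121 CPM, beside 62.5 and 105 in microglia.

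Vcan in N-PRα-KO over WT had a log2 ratio of 1.30 in fibroblasts and -1.93 in astrocytes. In the arachnoid barrier class, also meningeal, Vcan was 32.5 (19.9 to 50.2) CPM in 53 N-PRα-KO and 248 (215 to 285) in 109 WT cells, a ratio of -2.93.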

How the results depend on the processing

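No paired analysis was possible because each genotype has 1 library and the labels give no replicate numbers. Of 350 values of at least 2-fold between classes, recomputed under the alternatives, 348 kept their sign and 343 stayed at least 2-fold; between libraries these were 108 and 105 of 109. The 3 that turned were the N-PRα-KO log2 ratios of Ncan over astrocytes (0.43) and Tnc over fibroblasts (0.33, with 0 precursor UMIs set to 3) at a 10% mitochondrial limit, and Vcan between libraries in fibroblasts without cluster 6 (-1.02). That limit also changed 5 counts: members at 3 times the microglial level in WT fibroblasts became 0 (from 2), members lower in precursors over astrocytes 1 (from 3, N-PRα-KO), members lower over fibroblasts 0 (from 1, both libraries; in WT because Tnc fell under 20 CPM in both classes), and members lower between libraries in fibroblasts 4 (from 2). It leaves 11 N-PRα-KO precursors and 11 WT fibroblasts. With Scrublet calls kept, members at 3 times the microglial level in WT fibroblasts were 0. With cells thinned to 2000 UMIs, members lower in N-PRα-KO precursors over fibroblasts were 0, and at 1000 UMIs, members seen in over 50% of N-PRα-KO astrocytes were 3 (from 5). Between libraries, members higher in fibroblasts were 0 (from 1) with cells assigned one by one and 0 without cluster 6, where 4 were lower. With the base-composition trend removed, 0 (from 1) were higher in precursors and 4 (from 2) lower in fibroblasts. List genes higher in precursors over astrocytes were 31 with no filter and 9 at 100 CPM (from 17) in N-PRα-KO, and 8 at 100 CPM (from 16) in WT. The median r of pairs in other WT astrocytes was 0.0740 at full depth, against 0.000855 thinned. Apart from the construction of each alternative, the cause was not tested. Of the values without a fold threshold, 204 of 585 levels and 61 of 72 shares of cells moved beyond their counting interval. Clustered on its own, the N-PRα-KO library gave no cluster named precursor, so that alternative has no value for them.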
